A study of Mus musculus with 6 samples.

Results

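Regulators of the epithelial-mesenchymal transition (EMT) were examined in sorted mouse mammary basal cells. The set holds 10 genes, taken by symbol from the 51826 gene symbols of the deposited counts: the transcription factor genes Snai1, Twist1, Twist2, Zeb1, Zeb2 and Prrx1, the mesenchymal structural genes Cdh2 and Vim, and the epithelial splicing regulator genes Esrp1 and Esrp2. All 10 symbols were present in each of the 6 libraries' files, and 9 passed the filter on low counts. Twist2 did not.

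In an EMT, epithelial cells loosen their junctions and take up a mesenchymal shape and gene programme. Transcription factors of the SNAI, TWIST, ZEB and PRRX families drive it, largely by repressing junction genes and the ESRP genes, while the ESRP proteins hold many transcripts in their epithelial splice forms. ZEB factors and microRNAs of the miR-200 family repress each other. Mammary basal cells are contractile epithelial cells that, unlike luminal cells, express vimentin.

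GFP-positive (GFPpos) basal cells of pubertal C57B6/N mice were set against GFP-negative (GFPneg) ones. Both came from mice of the genotype SMAcreERT2/N1ICD, which carry a tamoxifen-inducible Cre under a smooth muscle actin promoter and an allele for the active intracellular domain of Notch1. A single tamoxifen dose was given at postnatal day 21, and cells were taken 72 hours later, at day 24. Each of 3 pools of 2 to 3 mice gave 1 library of each group, 3 per group. All mice carried the allele and received tamoxifen, so that Notch1 activation and any prior difference between the sorted cells cannot be told apart.

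Gene counts per library ranged from 9912610 to 16043492 in 5 libraries, and GFPneg replicate 1 held 611465. In that library 69.2% of counts lay in 5 abundant noncoding features, 1 count equalled 3.26 CPM (counts scaled to the effective library size) and 4 of the 10 genes had 0 counts. Each fold change of the 9 tested genes is therefore given with and without it. All 12 basal epithelial markers were detected in every library, among them Krt14, a basal keratin gene, at 1391, 853 and 791 CPM in GFPpos replicates 1, 2 and 3, and 1944, 1910 and 1573 CPM in GFPneg replicates 1, 2 and 3. In bulk samples, fewer cells of a type and less RNA per cell cannot be told apart.

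None of the 9 tested genes passed edgeR's quasi-likelihood test of GFPpos against GFPneg cells (0 higher and 0 lower at an adjusted p below 0.05, against 0.0577% higher, 0.00721% lower and 0.0649% either way of 13873 tested genes). With so few genes called over all, 0 of 9 does not show that these genes were unchanged. At an unadjusted p below 0.05 there was 1, Twist1, against 5.26% of all tested genes (2.38% higher, 2.88% lower). DESeq2 and limma-voom also called 0, against 1.08% of all genes with DESeq2 (0.36% higher, 0.72% lower) and 0.562% with limma-voom (0.389% higher, 0.173% lower). Of the 9 log2 fold changes, 5 were positive and 4 negative, with a median of 0.05, against a median of 0.15 over all tested genes. Groups did not overlap for 0 of the 9, against 13.2% of all tested genes (GFPpos higher in 9.56%, GFPneg higher in 3.63%). Snai1 alone among the 10 was higher in GFPpos cells in all 3 pairs, a pattern that 21.6% of tested genes showed, and no gene of the set was lower in all 3, as 8.03% of tested genes were (29.6% in either direction).

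**Figure D1:**
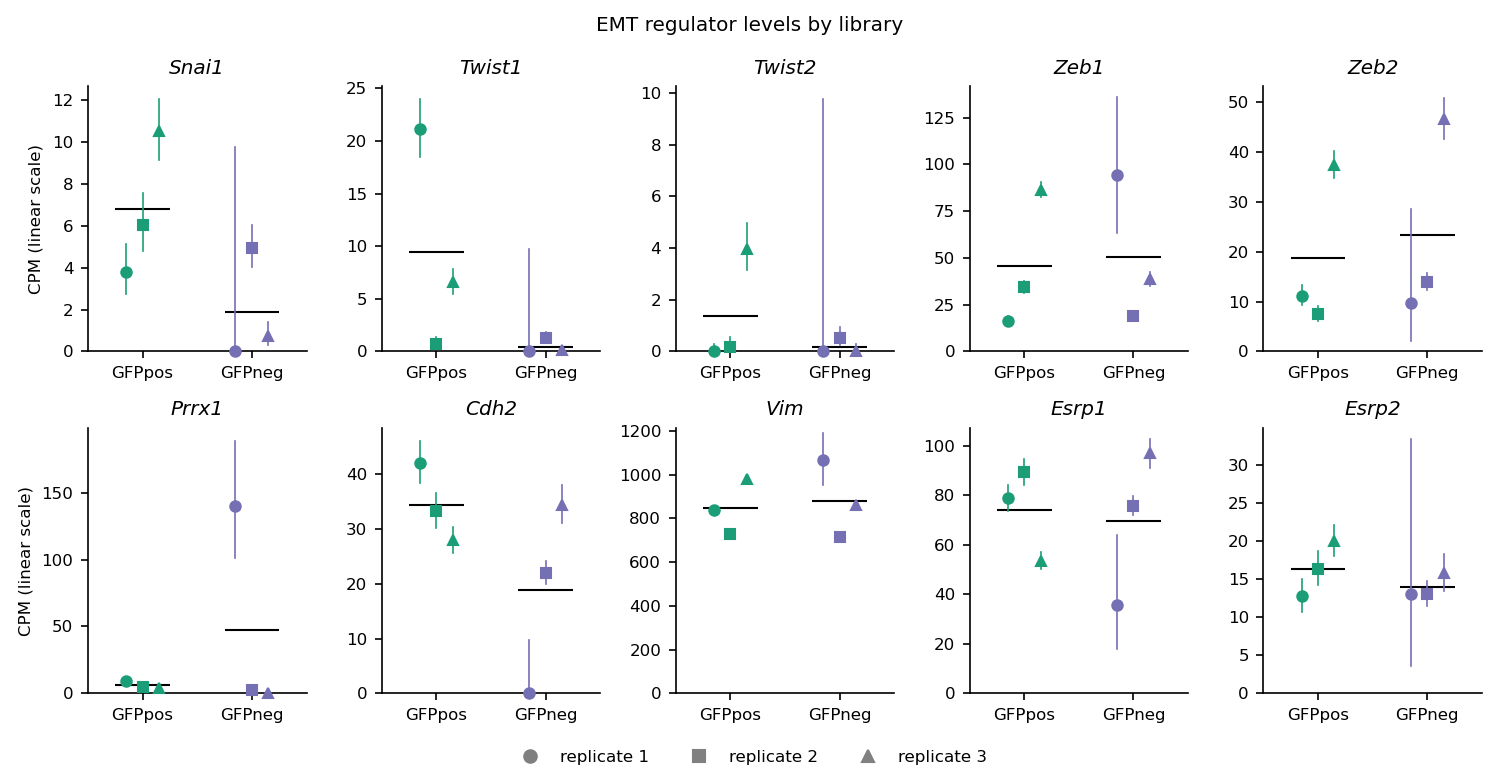
Level of each gene in CPM on linear axes starting at 0, with GFPpos libraries in green and GFPneg libraries in purple. Symbols mark the replicate number, vertical bars the 95% exact Poisson interval of the counts (for a count of 0, up to 3 counts), and horizontal bars the group mean. The groups overlap for every gene, and the intervals of GFPneg replicate 1 are the widest.

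Snai1 (chromosome 2, 167538195 to 167542814, mm10) encodes a zinc finger repressor of junction genes. It stood at 3.80, 6.05 and 10.5 CPM in GFPpos replicates 1, 2 and 3, and at 0, 4.95 and 0.725 CPM in GFPneg replicates 1, 2 and 3. The GFPneg replicate 2 level lay within the GFPpos range, and the count of 0 in GFPneg replicate 1 allows up to 9.78 CPM, so that its pair gives no direction beyond counting error. GFPpos cells averaged 6.79 ± 3.43 CPM, and GFPneg cells 1.89 ± 2.68 CPM (SD, n = 3 each). The log2 fold change was 1.5 (SE 1.24, 95% interval -1.13 to 4.13), which did not pass edgeR's test (adjusted p = 1). It was 1.25 without GFPneg replicate 1 (adjusted p = 0.878), 3.43 without GFPneg replicate 2 and 0.54 without both libraries of replicate 3. It was positive in all 19 other settings tried and passed in 0 of them.

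The sequence before the Snai1 start site is shown because the SNAI and ZEB proteins bind the E-box CACCTG, and SNAI1 is known in human cells to bind its own promoter. The 250 bases before the start (chr2:167537945-167538194, plus strand, RefSeq, GRCm38.p6) hold 1 such E-box on either strand (CACCTG or CAGGTG), in capitals, whose first base lies 126 bases before the start. Of 32851 promoter windows of this length, 17.2% held at least 1. The core TGGGAA (or TTCCCA) of the Notch effector RBPJ had 0 matches in it, and 21.6% of the windows held at least 1.
Snai1: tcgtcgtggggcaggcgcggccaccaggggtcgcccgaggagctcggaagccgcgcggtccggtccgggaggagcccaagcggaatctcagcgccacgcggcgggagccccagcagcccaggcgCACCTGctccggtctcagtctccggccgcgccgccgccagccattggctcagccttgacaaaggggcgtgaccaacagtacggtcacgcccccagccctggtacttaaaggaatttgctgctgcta

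Twist1 (chromosome 12, 33957671 to 33959829) and Twist2 (chromosome 1, 91801461 to 91848028) encode helix-loop-helix factors of mesoderm and mesenchyme. Twist1 stood at 21.1, 0.698 and 6.56 CPM in GFPpos replicates 1, 2 and 3, and at 0, 1.28 and 0.0907 CPM in GFPneg replicates 1, 2 and 3. GFPpos replicates 1 and 3 were the high libraries, while GFPpos replicate 2 lay below its GFPneg partner. In counts these were 234, 9 and 127 in GFPpos libraries, against 0, 25 and 1 in GFPneg libraries. The log2 fold change was 3.83 (SE 1.55, 95% interval 0.53 to 7.13), the largest of the tested set. It passed an unadjusted threshold of 0.05 but not the adjusted one in edgeR's test (adjusted p = 0.839). It was 3.73 without GFPneg replicate 1 (adjusted p = 0.452), 2.53 without GFPpos replicate 1 and 6.59 without GFPneg replicate 2, and its adjusted p lay between 0.211 and 1 over 19 other settings.

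Twist2 was left out by the filter on low counts. It had 0, 2 and 77 counts in GFPpos replicates 1, 2 and 3, and 0, 10 and 0 counts in GFPneg replicates 1, 2 and 3. GFPpos replicate 3, at 3.98 CPM, therefore held most of its counts. With no low count filter the log2 fold change was 2.49 (SE 2.66, edgeR adjusted p = 0.754). An antisense gene, Gm29100, covers 46.5% of the exon bases of Twist2. The strand setting of the counting is not given, so that reads of the 2 genes may not be told apart.

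The 250 bases before the Twist1 start (chr12:33957421-33957670, plus strand, RefSeq, GRCm38.p6) are shown beside those of Snai1 because these genes had the highest positive fold changes of the tested set. They hold 0 matches to either motif, and neither did those of Twist2, Prrx1 or Vim or those at the 4 start sites of Zeb2. RefSeq sequences were printed or searched for 6 of the 10 genes.
Twist1: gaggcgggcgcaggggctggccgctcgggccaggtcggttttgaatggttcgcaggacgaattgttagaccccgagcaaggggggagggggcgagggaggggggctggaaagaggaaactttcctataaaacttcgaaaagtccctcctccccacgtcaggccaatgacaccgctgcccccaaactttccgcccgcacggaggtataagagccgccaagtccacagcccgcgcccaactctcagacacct

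Prrx1 (chromosome 1, 163245119 to 163313710), a homeobox gene of mesenchyme, owed its direction to 1 library. It stood at 9.04, 5.04 and 3.98 CPM in GFPpos replicates 1, 2 and 3, and at 140, 2.35 and 0.544 CPM in GFPneg replicates 1, 2 and 3. The 140 CPM of GFPneg replicate 1 came from 43 counts (95% interval 101 to 189 CPM, counting error only), above every other library. With all 6 libraries the log2 fold change was -2.82 (SE 1.38, edgeR adjusted p = 0.988). Without GFPneg replicate 1 it was 2.05 (SE 1.2, adjusted p = 0.714), and all 3 GFPpos libraries then lay above both GFPneg libraries, as they or the reverse did for 26.2% of all tested genes (GFPpos higher in 12.6%, GFPneg higher in 13.5%). The replicate block also turned the sign, to 0.32 (adjusted p = 1).

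**Figure D2:**
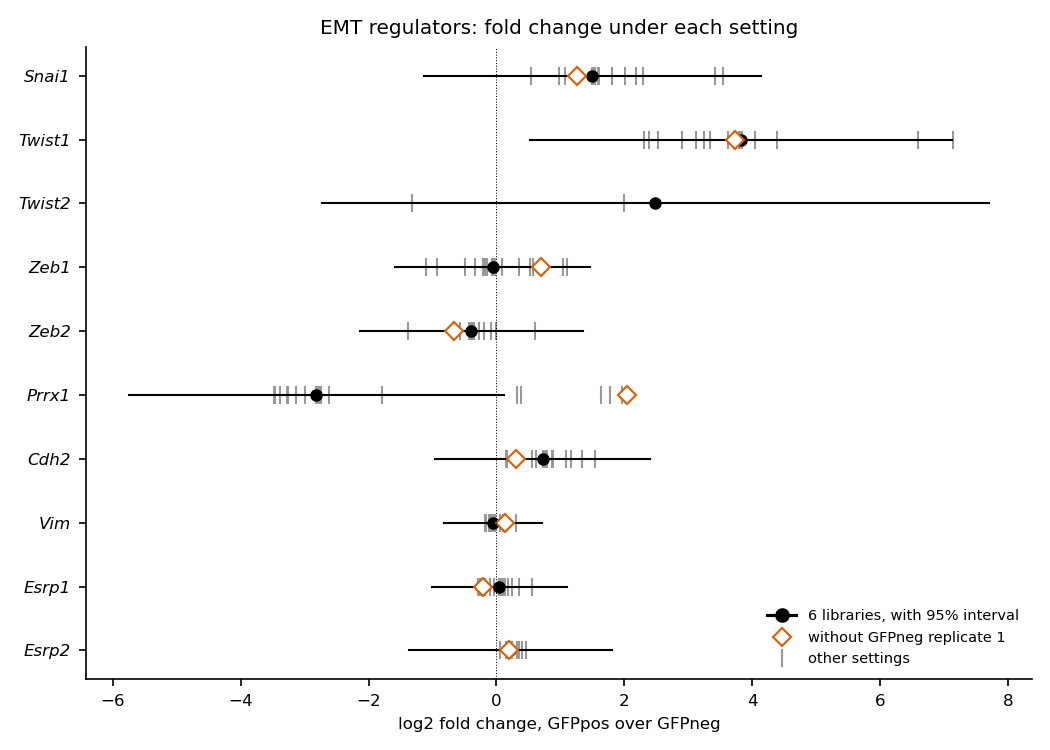
Log2 fold change of GFPpos over GFPneg cells for each gene on the horizontal axis. Black points and lines give the value with 6 libraries and its 95% interval (for Twist2, with no low count filter), orange diamonds the value without GFPneg replicate 1, and grey ticks the other settings. The interval lies above 0 for Twist1 alone, and Prrx1 stands at -2.82 with all libraries and at 2.05 without GFPneg replicate 1.

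Zeb1 (chromosome 18, 5591860 to 5775467) and Zeb2 (chromosome 2, 44983632 to 45117395) encode paired zinc finger and homeobox repressors of epithelial genes. Zeb1 stood at 16.3, 34.5 and 86.4 CPM in GFPpos replicates 1, 2 and 3, and at 94.6, 19.0 and 38.5 CPM in GFPneg replicates 1, 2 and 3. The highest level of each group was at least 2 times the next, and the groups overlapped fully. The log2 fold change was -0.06 (SE 0.72, 95% interval -1.58 to 1.46, edgeR adjusted p = 1). It was 0.69 (SE 0.59, adjusted p = 0.877) without GFPneg replicate 1. Within replicates 2 and 3 the GFPpos library was the higher, with log2 ratios of CPM + 1 of 0.83 and 1.15, against -2.47 in replicate 1. The block fit of those 2 pairs gave 1.03 (SE 0.40, adjusted p = 0.158).

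Zeb2 stood at 11.2, 7.52 and 37.4 CPM in GFPpos replicates 1, 2 and 3, and at 9.78, 13.9 and 46.6 CPM in GFPneg replicates 1, 2 and 3. Both libraries of replicate 3 were high and the other 4 low, whichever group they belonged to. The log2 fold change was -0.40 (SE 0.82, 95% interval -2.14 to 1.35, edgeR adjusted p = 1), and 0.61 without GFPneg replicate 3. Without GFPneg replicate 1 it was -0.67 (adjusted p = 0.901). The Zeb1 to Zeb2 count ratio was 1.45, 4.59 and 2.31 in GFPpos replicates 1, 2 and 3, and 9.67, 1.37 and 0.827 in GFPneg replicates 1, 2 and 3, the first of these from 29 and 3 counts. An antisense gene, Zeb2os, shares 3.27% of the exon bases of Zeb2, and Gm10125 shares 1.93% of those of Zeb1.

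The mature miR-200 family is shown because its seeds pair with the Zeb2 message. Bases 2 to 8, the seed, are in capitals (RefSeq, GRCm38.p6). The family has a pair of seeds that differ at a single base, and miR-205, another epithelial microRNA that targets ZEB messages, has its own.
miR-200b-3p: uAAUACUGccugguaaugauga
miR-200c-3p: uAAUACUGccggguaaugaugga
miR-429-3p: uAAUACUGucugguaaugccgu
miR-200a-3p: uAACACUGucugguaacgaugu
miR-141-3p: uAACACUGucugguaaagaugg
miR-205-5p: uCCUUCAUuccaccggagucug

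The 3' UTR of the longest coding transcript of Zeb2 (4941 bases, GENCODE M21) held 5 matches to CAGTATT, the reverse complement of the first seed, and 4 to CAGTGTT, that of the second. These are 1.01 and 0.81 matches per kilobase, against 0.108 and 0.149 per kilobase over the 3' UTRs chosen likewise for 21028 genes, of which 13.3% and 17.2% held at least 1. A match of the first and 1 of the second kind are shown with the seed match in capitals (minus strand, GRCm38).
Zeb2 chr2:44988172-44988192: actaccatacatCAGTATTtt
Zeb2 chr2:44987824-44987844: gccatccttgtaCAGTGTTca

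The libraries did not measure these microRNAs. The 6 microRNA gene rows of both families held 0 counts in every library, except for 3 counts of Mir200c in GFPpos replicate 2. Total RNA libraries of this kind recover few mature microRNAs, and no change of the family was detectable at this depth.

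Zeb1 and Vim shared their 2 highest libraries with the endothelial markers. The summed level of 14 endothelial markers was 1635, 1440 and 4097 CPM in GFPpos replicates 1, 2 and 3, and 3114, 1408 and 885 CPM in GFPneg replicates 1, 2 and 3. GFPpos replicate 3 and GFPneg replicate 1 were the 2 highest libraries in this sum, in Zeb1 and in Vim. At least 13 of the 14 markers were detected in every library, and none was at 0 in a whole group. Pecam1, an endothelial adhesion gene, stood at 367, 323 and 976 CPM in GFPpos replicates 1, 2 and 3, and at 714, 241 and 175 CPM in GFPneg replicates 1, 2 and 3. The part of endothelial RNA in the levels of Zeb1 and Vim was not tested.

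Zeb2 was highest in GFPneg replicate 3, whose endothelial sum was the lowest. The 9 Schwann cell and neural markers summed to 237, 231 and 143 CPM in GFPpos libraries, and to 894, 237 and 458 CPM in GFPneg libraries, in replicate order. GFPneg replicate 1, the library with the high Prrx1 level, had the highest such sum. The 14 fibroblast markers summed to 1139, 1140 and 812 CPM in GFPpos libraries and to 1102, 2196 and 2333 CPM in GFPneg libraries, with the fibroblast genes Lum and Mfap5 at 0 in all 6. Within this list Col1a1, a collagen gene, was highest in GFPneg replicate 1 (254 CPM, against 4.42 to 51.4 CPM elsewhere), as was Col3a1 (94.6 CPM). Other markers of the list were not. Postn, its highest marker, stood at 300 CPM there, against 1146 and 1462 CPM in GFPneg replicates 2 and 3. Dcn stood at 0 there, against 60.6 and 7.80 CPM in GFPneg replicates 2 and 3. The 10 pericyte markers summed to 435, 293 and 841 CPM in GFPpos libraries and to 58.7, 174 and 230 CPM in GFPneg libraries, and the groups did not overlap. In GFPneg replicate 1, 2 of these 10 markers were detected. Their order within GFPpos libraries was not that of Twist1, which was highest in replicate 1. With 6 libraries and no block edgeR called 0 of the endothelial, Schwann cell, fibroblast and pericyte markers. With the block it called 2 Schwann cell markers lower, against 0.31% higher, 0.13% lower and 0.44% either way of all tested genes. The block fit of replicates 2 and 3 called 7 endothelial and 3 pericyte markers higher and 3 Schwann cell and 2 fibroblast markers lower. Of all tested genes that fit, which rests on 2 pairs, called 2.52% higher, 1.41% lower and 3.92% either way. The parts of these cell types in the levels of the EMT genes were not tested.

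Immune markers were close to absent. The 13 immune markers summed to 5.60, 8.69 and 28.8 CPM in GFPpos and to 32.6, 8.02 and 10.7 CPM in GFPneg libraries. Adgre1, C1qb, Cd3g and Csf1r were at 0 in all 6 libraries. The 12 basal epithelial markers summed to 8952, 7848 and 7348 CPM in GFPpos and to 10299, 16173 and 13768 CPM in GFPneg libraries, and the groups did not overlap. The 12 luminal epithelial markers summed to 977, 857 and 631 CPM in GFPpos and to 261, 544 and 545 CPM in GFPneg libraries, again with no overlap, and 6 of them were detected in GFPneg replicate 1. Of the basal markers 1 had a positive and 11 a negative fold change (median log2 -0.72), and of the luminal ones 8 and 4 (median log2 0.64), with 0 called by edgeR with 6 libraries and no block. Kit, a receptor gene of luminal progenitors, stood at 61.5, 91.8 and 144 CPM in GFPpos and at 16.3, 4.50 and 10.97 CPM in GFPneg libraries. It missed that fit's threshold (log2 3.42, SE 0.66, edgeR adjusted p = 0.0891). It rose in edgeR with the replicate block (adjusted p = 0.00358), in edgeR without GFPneg replicate 1 (0.00523) and in DESeq2 (0.000253). The block fit called 0.31% of all genes higher, 0.13% lower and 0.44% either way. Without GFPneg replicate 1, the basal genes Col17a1 (edgeR adjusted p = 0.0328), a hemidesmosome collagen gene, and Cnn1 (0.0158), a contractile gene, fell. These were 2 of the 12 basal markers, against 0.412% higher, 0.19% lower and 0.602% either way of all tested genes in that fit. Esrp1 and Esrp2, which luminal cells also express, showed no such separation of the groups. The 8 adipocyte markers summed to 71.7, 48.6 and 177 CPM in GFPpos and to 88.0, 153 and 91.6 CPM in GFPneg libraries.

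**Figure D3:**
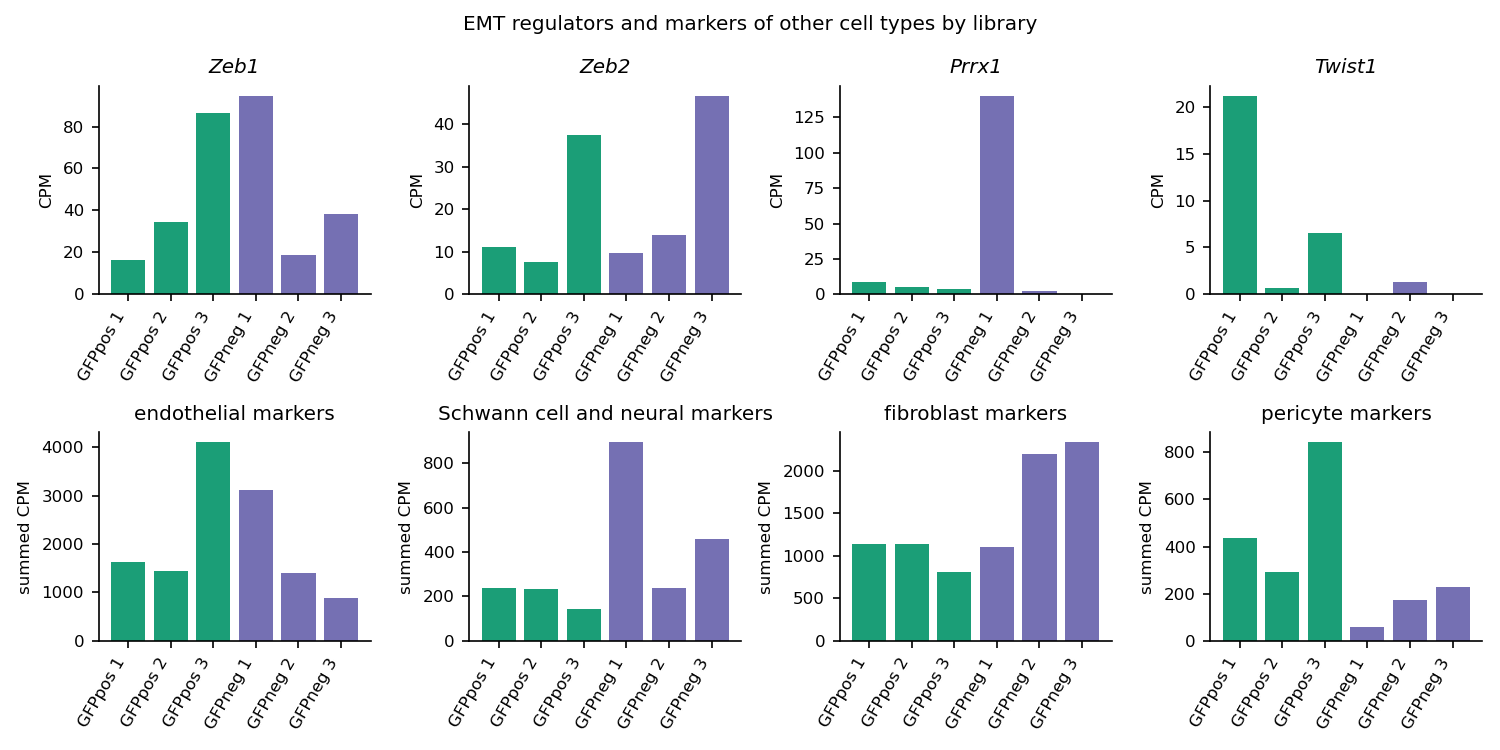
Level of 4 EMT regulators (top, CPM) and summed level of 4 marker lists of other cell types (bottom, summed CPM) in each library, on linear axes, with GFPpos libraries in green on the left and GFPneg libraries in purple. Zeb1 and the endothelial sum share their 2 highest libraries, and the 140 CPM of Prrx1 and the 894 CPM of the Schwann cell sum fall in GFPneg replicate 1.

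Vim (chromosome 2, 13573927 to 13582826), the intermediate filament gene of mesenchymal and basal cells, was abundant in both groups. It stood at 836, 729 and 980 CPM in GFPpos replicates 1, 2 and 3, and at 1066, 713 and 860 CPM in GFPneg replicates 1, 2 and 3. The groups overlapped, with a lowest to highest span of 713 to 1066 CPM over all 6 libraries. GFPpos cells averaged 848 ± 126 CPM, and GFPneg cells 880 ± 177 CPM (SD, n = 3 each). The log2 fold change was -0.05 (SE 0.36, 95% interval -0.83 to 0.72, edgeR adjusted p = 1). This was the narrowest interval of the set, and it still allows a change of the size of its bounds. Without GFPneg replicate 1 the value was 0.13 (adjusted p = 0.971), and over all 19 other settings it lay between -0.18 and 0.30.

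Cdh2 (chromosome 18, 16588877 to 16809246) encodes N-cadherin, the cadherin of mesenchymal and neural cells. It stood at 42.1, 33.3 and 27.9 CPM in GFPpos replicates 1, 2 and 3, and at 0, 21.9 and 34.4 CPM in GFPneg replicates 1, 2 and 3. The 2 GFPneg libraries of usual depth spanned the GFPpos replicates 2 and 3, and the count of 0 allows up to 9.78 CPM in GFPneg replicate 1. The log2 fold change was 0.72 (SE 0.79, 95% interval -0.96 to 2.41, edgeR adjusted p = 1), and 0.31 (SE 0.40, adjusted p = 0.936) without GFPneg replicate 1. It was 1.34 without GFPneg replicate 3, 1.54 without both libraries of replicate 3 and 0.14 without both of replicate 1.

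Neither splicing regulator passed the test, and their intervals allow a difference in either direction. Esrp1 (chromosome 4, 11331933 to 11386783) stood at 79.0, 89.4 and 53.6 CPM in GFPpos replicates 1, 2 and 3, and at 35.9, 75.9 and 97.0 CPM in GFPneg replicates 1, 2 and 3. The lowest of these, in GFPneg replicate 1, came from 11 counts (95% interval 17.9 to 64.2 CPM). The GFPpos range lay within the GFPneg range. Its log2 fold change was 0.05 (SE 0.49, 95% interval -1.0 to 1.10, edgeR adjusted p = 1), and -0.21 (SE 0.31, adjusted p = 0.946) without GFPneg replicate 1.

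Esrp2 (chromosome 8, 106130319 to 106136974) stood at 12.7, 16.4 and 19.98 CPM in GFPpos replicates 1, 2 and 3, and at 13.0, 13.1 and 15.8 CPM in GFPneg replicates 1, 2 and 3. The GFPneg values lay inside the GFPpos range. Its log2 fold change was 0.22 (SE 0.75, 95% interval -1.37 to 1.80, edgeR adjusted p = 1). With GFPneg replicate 1 left out it was 0.20 (adjusted p = 0.98). Exons of Nfatc3 on the other strand cover 5.05% of the exon bases of Esrp2, so that some of its reads may be ambiguous.

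Ratios of counts within a library need no scaling between libraries. For each count of Zeb1 and Zeb2 together there were 3.34, 2.52 and 0.594 counts of Esrp1 and Esrp2 in GFPpos replicates 1, 2 and 3, and 0.469, 2.70 and 1.32 in GFPneg replicates 1, 2 and 3. The ratio was thus below 1 in GFPpos replicate 3 (95% exact interval 0.556 to 0.635) and GFPneg replicate 1 (0.236 to 0.891), and above 1 in the other 4 libraries. The group medians stood 0.93 apart on the log2 scale, higher in GFPpos cells, while the libraries of 1 group differed more than that among themselves. With Zeb1 and Esrp1 alone the medians were 0.04 apart, and with Zeb2 and Esrp1 alone 0.94. The Esrp1 to Esrp2 ratio was 6.20, 5.46 and 2.68 in GFPpos replicates 1, 2 and 3, and 2.75, 5.80 and 6.15 in GFPneg replicates 1, 2 and 3. GFPpos replicate 3 stood below the 4 other libraries of usual depth in it. For each count of the basal keratins Krt5 and Krt14 together there were 0.341, 0.365 and 0.653 counts of Vim in GFPpos replicates 1, 2 and 3, and 0.315, 0.196 and 0.333 in GFPneg replicates 1, 2 and 3. This was the 1 ratio computed whose groups did not overlap, higher in the GFPpos library of all 3 pairs. The interval of GFPneg replicate 1 (0.278 to 0.357) reached the value of GFPpos replicate 1. The basal markers as a list had mostly negative fold changes, and their part in this ratio was not tested.

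**Figure D4:**
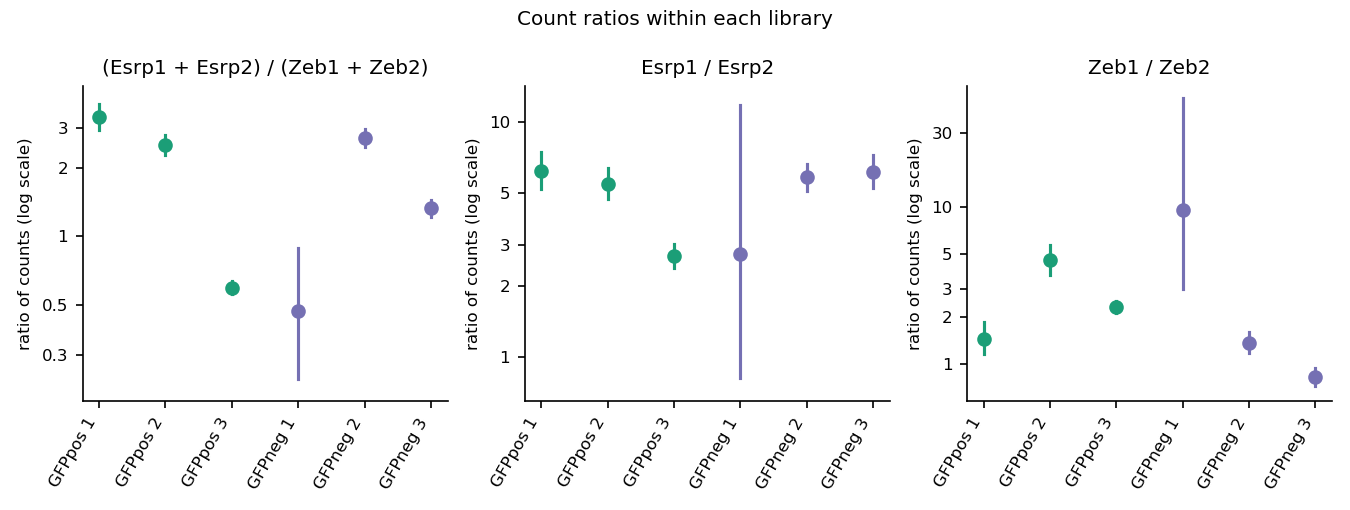
Ratios of counts within each library on logarithmic axes, with GFPpos libraries in green on the left and GFPneg libraries in purple. Lines are 95% exact intervals for counting error. The ESRP to ZEB ratio is below 1 in GFPpos replicate 3 (0.594) and GFPneg replicate 1 (0.469) and above 1 in the other 4.

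Set on a scale per length (CPM per kilobase of exon), Vim had the highest level, with a mean of 182 over the 6 libraries (range 150 to 225), above the ranges of all the others. In order of their means, the others were Esrp1 (11.4, range 5.69 to 15.4), Zeb1 (4.70, 1.58 to 9.21), Esrp2 (3.49, 2.94 to 4.6), Cdh2 (3.30, 0 to 5.22), Twist1 (3.05, 0 to 13.0), Snai1 (2.68, 0 to 6.5), Prrx1 (2.43, 0.0492 to 12.7), Zeb2 (1.06, 0.377 to 2.34) and Twist2 (0.244, 0 to 1.25). Each range below that of Vim overlapped the next in this order, so that neighbours are not ranked beyond the spread between libraries. Ranges that did not overlap put Esrp1 above Esrp2, Cdh2, Zeb2 and Twist2, Esrp2 above Zeb2 and Twist2, and Zeb1 above Twist2. These ranges leave out counting error. In GFPneg replicate 1 the lowest Esrp1 level came from 11 counts, and Esrp2, Zeb2, Cdh2 and Twist2 had 4, 3, 0 and 0. With that error counted, several of these orders may not hold. Exon lengths were those of all annotated transcripts together, 19942 bases for Zeb2, which understates genes that use a shorter form.

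Genes with the most similar pattern over the 6 libraries were found by Pearson's r of log2(CPM + 1), among genes with a mean of at least 20 CPM. For Vim these were Egfl7 (r = 0.994), a gene of the endothelial list, Fubp1 (0.992) and Dhx30 (0.976). For Zeb2 they were Bclaf1 (0.981), Ahctf1 (0.977) and Kitl (0.968), for Prrx1 Ddx10 (0.998), Ptpa (0.996) and Fkbp8 (0.996), and for Esrp1 Ncam1 (0.995), Specc1 (0.993) and Pmepa1 (0.990). With 6 libraries from 3 pools, 1 of them shallow, such values arise among so many genes and describe these libraries only. For Prrx1 they rest on GFPneg replicate 1.

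Other transcription factors of the mesenchymal programme did not pass with 6 libraries. Of 20 listed, 12 were tested, 5 with positive and 7 with negative fold changes (median log2 -0.16), and edgeR called 0 in either direction. The unadjusted p was below 0.05 for 1, higher, against 2.38% higher and 2.88% lower of all tested genes. Snai2, the SNAI family member of basal cells, stood at 52.7, 35.9 and 27.2 CPM in GFPpos replicates 1, 2 and 3, and at 6.52, 86.7 and 138 CPM in GFPneg replicates 1, 2 and 3. Both GFPneg libraries of usual depth lay above all GFPpos libraries, as for 13.5% of all tested genes, and the shallow one below them, from few counts. Its log2 fold change was -1.06 (SE 0.69, edgeR adjusted p = 1), with an adjusted p of 0.0904 without GFPneg replicate 1 and of 7.77e-05 in the block fit of replicates 2 and 3, which rests on 2 pairs (3.92% of 15346 genes were called in that fit, 2.52% higher and 1.41% lower). Foxf1, a forkhead gene of mesenchyme, stood at 6.14, 9.77 and 25.7 CPM in GFPpos and at 0, 3.52 and 0.272 CPM in GFPneg libraries, in replicate order (log2 3.01, SE 1.21, edgeR adjusted p = 0.839, and 0.0145 in the block fit of replicates 2 and 3). Its groups did not overlap, as for 9.56% of all tested genes with GFPpos higher. The 0 in GFPneg replicate 1 allows up to 9.78 CPM, above GFPpos replicates 1 and 2, so the separation is not shown beyond counting error.

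The epithelial factor and junction genes gave 0 calls with 6 libraries in edgeR, with or without the replicate block, and in DESeq2. Of 17 epithelial transcription factor genes, all tested, 9 had positive and 8 negative fold changes (median log2 0.12) and edgeR called 0, with an unadjusted p below 0.05 for 1 in each direction. Klf4, a factor of epithelial differentiation, stood at 120, 98.3 and 159 CPM in GFPpos and at 189, 227 and 324 CPM in GFPneg libraries, in replicate order (log2 -0.98, SE 0.41, edgeR adjusted p = 0.843, and 0.0215 in the block fit of replicates 2 and 3). Its groups did not overlap, as for 3.63% of all tested genes with GFPneg higher. Of 34 junction and polarity genes 31 were tested, 20 with positive and 11 with negative fold changes (median log2 0.28), and 0 were called (unadjusted p below 0.05 for 3, all higher). For both lists, the unadjusted counts stand against 2.38% higher and 2.88% lower of all tested genes. The tight junction gene Cldn3 stood at 12.7, 17.99 and 11.2 CPM in GFPpos and at 0, 4.09 and 2.45 CPM in GFPneg libraries. Marveld3, another tight junction gene, stood at 19.0, 16.9 and 13.8 CPM in GFPpos and at 3.26, 4.95 and 0.181 CPM in GFPneg libraries. The groups did not overlap for either gene, as for 9.56% of all tested genes with GFPpos higher. For Marveld3 the level in GFPneg replicate 1 came from 1 count, so its separation is not shown beyond counting error. Neither gene passed edgeR's test (adjusted p = 0.850 for both, with 0.0199 for Marveld3 in the block fit of replicates 2 and 3). Without GFPneg replicate 1, 1 junction gene was higher and 0 lower, against 0.412% higher, 0.19% lower and 0.602% either way of 15274 tested genes.

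Mesenchymal adhesion and matrix genes had mostly negative fold changes. Of 28 tested, 7 had positive and 21 negative fold changes (median log2 -0.42), and 0 were called by edgeR with 6 libraries, with 1 positive and 4 negative at the unadjusted threshold. Of all tested genes 2.38% were higher and 2.88% lower at that threshold. DESeq2 called 1, Cdh11, a cadherin gene of mesenchyme, with 0, 0.310 and 0 CPM in GFPpos and 3.26, 5.01 and 8.25 CPM in GFPneg libraries (DESeq2 adjusted p = 0.0360, edgeR adjusted p = 0.637), against 1.08% of all genes DESeq2 tested. Mmp2, a matrix protease gene, stood at 45.1, 39.7 and 40.1 CPM in GFPpos and at 22.8, 251 and 279 CPM in GFPneg libraries. It fell without GFPneg replicate 1 (adjusted p = 0.00116), while with 6 libraries it did not pass (log2 -2.18, SE 0.63, adjusted p = 0.493). Tgfbi, a matrix gene induced by TGF-beta, stood at 76.2, 122 and 255 CPM in GFPpos and at 88.0, 38.7 and 21.6 CPM in GFPneg libraries (log2 1.72, SE 0.60, edgeR adjusted p = 0.671). In replicate 1 the GFPneg library was thus the higher. The block fit of replicates 2 and 3, which rests on 2 pairs, gave Tgfbi an edgeR adjusted p of 1.88e-10. Of 8 cadherin genes tested 4 had positive and 4 negative fold changes, and of 6 intermediate filament genes of non-epithelial cells 3 and 3. EdgeR called 0 in either list with 6 libraries, while DESeq2 called 1 cadherin gene, Cdh11. The block fit of replicates 2 and 3 called 1 higher and 1 lower cadherin gene, and 2 higher and 1 lower filament gene. Of all tested genes that fit called 2.52% higher, 1.41% lower and 3.92% either way. Nefh, a neurofilament gene, stood at 31.4, 22.1 and 38.5 CPM in GFPpos and at 13.0, 0.460 and 0 CPM in GFPneg libraries. It rose without GFPneg replicate 1 (edgeR adjusted p = 0.00497) but did not pass with it (adjusted p = 0.669). Without that library 0.412% of all tested genes were called higher and 0.19% lower.

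Partners of the splicing and ZEB proteins showed 0 calls with 6 libraries in edgeR, with or without the replicate block, and in DESeq2. Of 15 tested splicing regulators 8 had positive and 7 negative fold changes (median log2 0.02), with an unadjusted p below 0.05 for 0. Of 14 genes whose transcripts ESRP proteins are known to splice, 4 were positive and 10 negative (median log2 -0.28). The unadjusted p was below 0.05 for 2, both lower, against 2.38% higher and 2.88% lower of all tested genes. These were Fgfr1 and Ctnnd1, and Ctnnd1 owed its direction to GFPneg replicate 1 (261 CPM, against 14.6 to 17.0 CPM elsewhere). Gene counts hold no splice form, so that the activity of ESRP was not measured. Fgfr1, a fibroblast growth factor receptor gene, stood at 176, 261 and 199 CPM in GFPpos and at 584, 353 and 538 CPM in GFPneg libraries (log2 -1.21, SE 0.39, edgeR adjusted p = 0.640). Its groups did not overlap, as for 3.63% of all tested genes with GFPneg higher. Of 16 ZEB cofactors and TGF-beta pathway genes, 8 were positive and 8 negative (median log2 -0.04), with an unadjusted p below 0.05 for 1, lower. Smad7, the feedback inhibitor of TGF-beta signalling, stood at 63.1, 59.1 and 63.6 CPM in GFPpos and at 150, 113 and 232 CPM in GFPneg libraries, with no overlap (log2 -1.42, SE 0.44, adjusted p = 0.602). It fell in the block fit of replicates 2 and 3 (edgeR adjusted p = 0.00229).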

How the data were processed

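Total RNA of 6 libraries was sequenced, 3 GFPpos and 3 GFPneg. The authors deposited raw counts per gene symbol, with 5 summary rows left out here. FastQC, cutadapt, TopHat2, HTSeq and mm10 are named, per the submitters' processing notes. Their versions, the strand setting and the annotation are not given. Reads without a feature made up 28.8% to 66.4% of the deposited totals. Positions, exon lengths and overlaps came from GENCODE M21.

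The test was edgeR's (4.0.16, under R 4.3.3; quasi-likelihood, TMM, filterByExpr, group only), with Benjamini-Hochberg adjustment over 13873 genes. The SE is the unshrunk log2 fold change over the square root of F. Intervals and floors (3 counts) cover counting error only, except those of fold changes. Other settings used DESeq2 1.42.0 and limma-voom (limma 3.58.1), scalings, filters, left-out libraries and the replicate block. Both fractions of a replicate came from 1 pool, per the design text, so the number pairs them. The main fit left this pairing out, and the replicate block, which models it, was run as another setting. Deviations within pairs correlated at -0.0362, 0.122 and -0.00135. Spread between libraries is spread between pools.

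All 10 genes are named. Of each other list, called genes and up to 4 with the smallest p could be named. Groups that do not overlap in a gene named this way are therefore no separate evidence. The genes and lists were chosen with earlier results of these data known. The interval of a fold change is the log2 value with its SE times the t quantile of the fit. Some genes of the lists are not reported here by name.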

Additional observations from a re-analysis of the deposited data

How the results depend on the processing

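Over 19 other settings, 173 values of the 10 genes were obtained, 0 of them past an adjusted p of 0.05, and 27 changed sign. Library size only gave 0.53 for Zeb1 and 0.30 for Vim (log2 fold changes here and below). The replicate block gave 0.32 for Prrx1, and DESeq2 with the block 0.39 for Prrx1 and -1.33 for Twist2. Limma-voom gave 0.56 for Zeb1, 1.78 for Prrx1, 0.10 for Vim and -0.19 for Esrp1. With 1 library or pair left out, values ranged from 0.54 to 3.54 for Snai1, 2.38 to 7.14 for Twist1, 0.14 to 1.54 for Cdh2, 0.05 to 0.39 for Esrp2, -1.10 to 1.10 for Zeb1, -1.38 to 0.61 for Zeb2, -3.47 to 2.05 for Prrx1, -0.18 to 0.14 for Vim and -0.25 to 0.55 for Esrp1. The block of replicates 2 and 3 gave 1.03 for Zeb1, 1.96 for Prrx1, 0.13 for Vim and -0.29 for Esrp1. Prrx1, Zeb1, Vim and Esrp1 reversed wherever GFPneg replicate 1 was left out, and each also reversed in other settings. The cause of the other changes of sign was not tested.

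The replicate block changed no call among the 10 genes. With 6 libraries it gave 2.30 for Snai1, 3.24 for Twist1, 1.09 for Cdh2 and 0.22 for Esrp2. For Zeb1, Zeb2, Vim and Esrp1 it gave -0.02, -0.38, -0.05 and 0.13. Over all genes the calls were 8 higher and 1 lower with 6 libraries, 43 and 18 with the block, 65 and 236 with no low count filter, 52 and 104 with DESeq2, 77 and 90 with DESeq2 and the block, 54 and 24 with limma-voom, 5 and 1 with library size only, and 386 and 216 with the block of replicates 2 and 3. Without 1 library or pair they ranged from 2 to 63 higher and 1 to 68 lower. Library size only moved the median log2 fold change of all genes to 0.31, against 0.15. Pseudocounts of 0.5 and 5 turned no pair ratio of the 10 genes. Over the 19 settings 0.0204% to 3.92% of all tested genes were called. A count of 0 in GFPneg replicate 1 allows a level of up to 9.78 CPM.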
